A study of Mus musculus with 2 samples.

Results

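The 8 genes described here belong to the epithelial to mesenchymal transition (EMT) and the mesenchymal matrix, and their mRNA was measured in uninduced mouse embryonic stem cells (mESCs). They are the matrix genes Fn1 and Sparc and the transcription factor genes Twist1, Twist2, Snai1, Snai2, Zeb1 and Zeb2, 8 of the 22556 genes in the table, found by their symbols. The set was picked on measured values, because Fn1, Sparc and Twist1 exceeded 10 transcripts per 1000000 (TPM) computed on gene span in embryonic stem cells, which are epithelial, and the other 5 stand beside them as the remaining factors of the same families. The levels below are therefore a description and carry no test. The libraries were poly(A)-selected, strand-specific mRNA from iXist-ChrX-Dom, a female line from a Dom/129S x Cast cross in which the Xist promoter of the Dom/129S allele was exchanged for a TetOn promoter. No doxycycline had been given (0 h), so the inducible Xist allele was not switched on by the drug. There was 1 group of 2 replicates and no treatment to compare, both replicates carry the same line name, A11B2, and nothing states that they came from separate cultures, so any spread between them may be technical. The cells were kept in serum with LIF on growth-arrested mouse fibroblast feeders, and before experiments a pre-plating step let the feeders attach first and the slower mESCs were moved to dishes without feeders. How many feeder cells remained is not stated. The cell type tag of both samples reads mESC to NPC, although the samples are at 0 h of induction.

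EMT is the program by which epithelial cells lose E-cadherin junctions and become migratory. Its core transcription factors fall into the Snail (Snai1, Snai2) and Zeb (Zeb1, Zeb2) zinc finger families and the Twist (Twist1, Twist2) basic helix-loop-helix family, and they bind E-boxes, short DNA words of the form CANNTG, and repress Cdh1, the gene of E-cadherin. Fn1 encodes fibronectin, an adhesive glycoprotein of the extracellular matrix, and Sparc encodes a secreted collagen-binding glycoprotein that is abundant in basement membranes and in fibroblasts. ES cells grow as compact epithelial colonies that depend on E-cadherin.

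Promoters are shown for 4 genes of the set, the ones with 1 RefSeq window near the table's start site, because Twist1 and its paralogue Twist2 differed widely in level and E-boxes are the words that these factors themselves bind. RefSeq promoter windows (GRCm38.p6) were matched for 5 of the 8 genes: Sparc, Twist1, Twist2, Snai1 and Zeb2, the last with 4 windows. Each line below gives the 250 bases before the RefSeq start on the strand of the gene, at chr11:55420081-55420330 (minus strand) for Sparc, chr12:33957421-33957670 (plus) for Twist1, chr1:91801211-91801460 (plus) for Twist2 and chr2:167537945-167538194 (plus) for Snai1. Capitals mark E-boxes, CANNTG, a pattern that is its own reverse complement, so both strands are covered.
Sparc: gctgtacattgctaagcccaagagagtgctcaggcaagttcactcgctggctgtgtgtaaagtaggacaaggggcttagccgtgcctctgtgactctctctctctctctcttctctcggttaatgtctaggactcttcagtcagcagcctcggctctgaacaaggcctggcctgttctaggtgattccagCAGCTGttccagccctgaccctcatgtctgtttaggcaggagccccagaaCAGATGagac
Twist1: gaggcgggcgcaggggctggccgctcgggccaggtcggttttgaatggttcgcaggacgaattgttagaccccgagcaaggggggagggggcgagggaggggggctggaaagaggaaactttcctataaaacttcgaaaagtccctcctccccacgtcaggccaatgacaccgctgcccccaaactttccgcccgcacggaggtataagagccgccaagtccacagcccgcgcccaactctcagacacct
Twist2: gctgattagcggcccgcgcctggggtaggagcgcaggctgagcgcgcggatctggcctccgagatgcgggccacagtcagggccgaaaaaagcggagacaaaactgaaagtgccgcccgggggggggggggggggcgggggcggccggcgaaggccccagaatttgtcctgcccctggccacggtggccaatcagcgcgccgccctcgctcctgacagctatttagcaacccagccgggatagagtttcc
Snai1: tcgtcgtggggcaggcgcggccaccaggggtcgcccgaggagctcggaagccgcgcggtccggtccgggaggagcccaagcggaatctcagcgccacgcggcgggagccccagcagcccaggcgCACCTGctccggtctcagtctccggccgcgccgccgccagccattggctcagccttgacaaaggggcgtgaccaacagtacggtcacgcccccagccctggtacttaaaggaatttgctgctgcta

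The Sparc window held 2 E-boxes, CAGCTG and CAGATG, the Snai1 window held 1, CACCTG, and the Twist1 and Twist2 windows held 0. Of all 32851 promoter windows of this length, 66.2% held CANNTG, and 17.2% held CAGGTG or its reverse complement CACCTG, the form best known for Snail and Zeb binding, which is contained in CANNTG. The form best known for Twist binding, CATATG, which also has this shape, stood in 3.46% of all windows. The windows of Twist1, Twist2 and Snai1 were rich in G and C, at 62.4%, 68.8% and 70.0%, with 18, 23 and 27 CG pairs, while the Sparc window was at 54.0% with 4, and the median of all windows was 52.4% with 6. The expressed Twist1 and the nearly undetected Twist2 thus shared a GC-rich window with no E-box, and such matches are letters only and say nothing of binding.

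Of the set, 4 genes had 95 or more fragments in each replicate and 4 had no more than 24. This split follows in part from the selection, because Fn1, Sparc and Twist1 were picked for their level. In such bulk libraries, fewer cells that express a gene and less of its RNA per cell cannot be told apart. Fn1 led on every scale, and Sparc, Zeb1 and Twist1 followed in an order that depended on how gene length was treated. Snai2 was low, at 13 and 14 counted fragments, Zeb2 had 24 and 14, Snai1 had 4 and 1, and Twist2 had 1 and 1. Replicate 1 summed to 23716499 counts and replicate 2 to 20275749, and the floor that a count of 0 allows, 3 counts, equals 0.126 and 0.148 CPM, counts per 1000000. The 8 genes together took 10146 and 7905 counts, 0.0428% and 0.0390% of the libraries, and Fn1 alone made up 73.5% and 77.1% of these. Counting was over whole transcripts, introns included, so TPM was computed first on the gene span, as deposited, and second on the union of exons. The methods of the study describe these libraries as nearly free of intronic reads, in which case exonic length is the closer measure of the counted sequence. The counts themselves do not separate exonic from intronic fragments, so the share was not measured here.

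**Figure D1:**
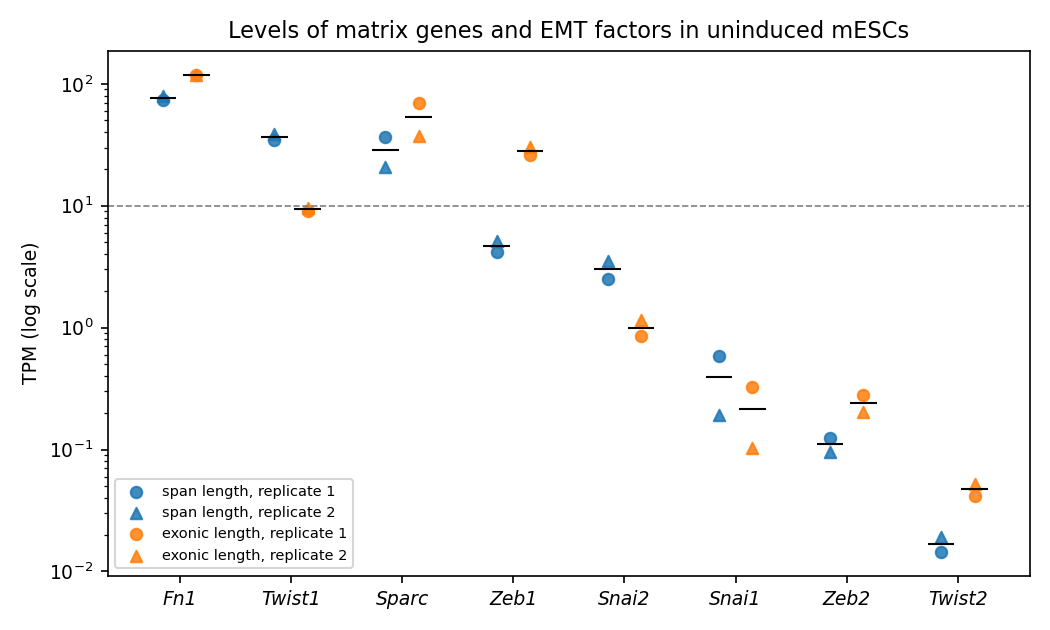
Levels of the 8 genes in each replicate, as TPM on gene span (blue) and on exonic length (orange) on a log axis; circles are replicate 1, triangles replicate 2, bars the mean, and the dashed line is 10 TPM. Fn1 is highest on both lengths, Twist1 is near Sparc on span and below Zeb1 on exonic length, and Snai1, Zeb2 and Twist2 are below 1 TPM on both.

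On gene span, 3 of the 8 genes had a mean of at least 10 TPM, Fn1, Twist1 and Sparc, beside 29.6% of all 22556 genes, and 5 had at least 1 TPM, beside 52.7% of all genes. At the selection threshold of 10 span TPM, the gene just inside it was Sparc at a mean of 28.8 and the gene just outside was Zeb1 at 4.65. On exonic length the number at or above 10 TPM was again 3, but the genes were Fn1, Sparc and Zeb1, beside 34.1% of the 22126 genes with an exonic length, and 5 had at least 1 TPM, beside 55.4%. Twist1 fell below 10 on that scale and Zeb1 rose above it. These counts of 5 of 8 and 3 of 8 are close to the shares of all genes, and the 3 on span was fixed by the selection.

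Fn1, on chromosome 1 from 71585472 to 71653234 of the minus strand (mm10), spans 67763 bp of which 8479 bp are exonic. It had 7455 fragments in replicate 1 and 6096 in replicate 2. Its span TPM was 74.2 and 79.6, a mean of 76.9 ± 3.86 (SD, n = 2), and its exonic TPM was 117 and 119, a mean of 118 ± 1.39 (SD, n = 2). The replicates were close on both scales, and Fn1 stood at percentile 90.5 of all genes on span TPM, 91.1 on exonic TPM and 96.8 on CPM. The genes most like it in span TPM over the 2 libraries, by the distance of log2(TPM + 1) among 12673 genes, were Ppp2cb (74.1 and 81.2), a catalytic subunit of protein phosphatase 2A, and Metap1 (73.8 and 82.0), a methionine aminopeptidase. The next gene at lower coordinates, Atic, an enzyme of purine synthesis, lay 6.069 kb away with 2070 and 1695 fragments and a span TPM of 65.1 ± 3.33 (SD, n = 2). The next at higher coordinates, Apol7d, began 0.1 kb past Fn1 with 117 and 128 fragments, and its GENCODE model overlaps Fn1 by 398 bp on the opposite strand, which the strand-specific counting kept apart.

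Fibronectin is held by integrin receptors and syndecans, and 6 of 10 listed receptor genes had at least 1 span TPM, with a median of 1.21 against 1.35 for all genes. Itgb1, the shared beta subunit of the fibronectin integrins, reached 146 and 181 span TPM, a mean of 164 ± 24.9 (SD, n = 2). Sdc4, a syndecan that binds the heparin-binding part of fibronectin, averaged 107 ± 15.4, and Itgav, the alpha subunit of the RGD-binding alpha-v integrins, 25.2 ± 6.46 span TPM (SD, n = 2 for both). Itga5, the alpha subunit of the classical fibronectin receptor, had 66 and 30 fragments and 1.58 ± 0.565 span TPM (SD, n = 2), far below Itgb1. The receptor list thus held 3 genes above 10 TPM, on span and on exonic length alike.

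Sparc, on chromosome 11 from 55394158 to 55420080 of the minus strand, spans 25923 bp with 2721 bp exonic. On library totals it was the gene of the set that differed most between the replicates among those with over 100 fragments. With a trend on GC content removed, Twist1 and Fn1 differed more, at log2 ratios of 0.77 and 0.58 against -0.39 for Sparc. It had 1411 fragments in replicate 1 and 612 in replicate 2, or 59.5 and 30.2 CPM. Its span TPM was 36.7 and 20.9, a mean of 28.8 ± 11.2 (SD, n = 2), and its exonic TPM was 69.0 and 37.2, a mean of 53.1 ± 22.5 (SD, n = 2). Replicate 1 was the higher one on every scale. The closest genes in span TPM over the 2 libraries were Idh2 (36.4 and 21.1), a mitochondrial isocitrate dehydrogenase, and Smg5 (37.6 and 20.6), a factor of nonsense-mediated decay. Neither neighbour of Sparc was near its level: Fat2 had 120 and 45 fragments and Atox1, a copper chaperone, 99 and 50.

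Of 7 other genes of the SPARC family, 3 had at least 1 TPM on span and 5 on exonic length, with medians of 0.421 and 2.19 TPM. Fstl1, a secreted follistatin-like glycoprotein, was the highest at 15.9 ± 3.27 span TPM and 48.1 ± 11.7 exonic TPM, the latter overlapping Sparc. Smoc1, a calcium-binding protein of basement membranes, was at 3.15 ± 0.270 span and 27.6 ± 3.42 exonic TPM, and Spock2, a proteoglycan of the same family, at 2.16 ± 0.468 span and 2.19 ± 0.558 exonic TPM (SD, n = 2 throughout). Among 12 genes of basement membrane and collagen folding, 11 had at least 1 span TPM and the median was 13.0, led by P4hb (210 ± 90.8), the disulphide isomerase subunit of prolyl hydroxylase, Nid2 (49.6 ± 1.83), the basement membrane linker nidogen, and P4ha1 (29.7 ± 0.864), the catalytic subunit of prolyl hydroxylase, all as mean span TPM ± SD with n = 2.

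Twist1, on chromosome 12 from 33957670 to 33959831 of the plus strand, is the shortest gene of the set, with a span of 2162 bp of which 1628 bp are exonic. It had 111 fragments in replicate 1 and 95 in replicate 2, or 4.68 and 4.69 CPM. Its span TPM was 34.6 and 38.9, a mean of 36.8 ± 3.03 (SD, n = 2), above that of Sparc in replicate 2 but not in replicate 1. Its exonic TPM was 9.07 and 9.65, a mean of 9.36 ± 0.412 (SD, n = 2), just under 10. The replicates were close, but the rank of Twist1 moved from percentile 83.9 of all genes on span TPM to 65.3 on exonic TPM and 60.0 on CPM. The median gene of the table spans 6.0 times its exonic length, and genes with little intron sequence such as Twist1 gain rank when the span is used. Birc6 (34.2 and 38.9), a giant inhibitor of apoptosis, and Acsl1 (34.5 and 38.4), a fatty acid CoA ligase, were closest to it in span TPM, and they were at 77.5 and 109 exonic TPM. The neighbour Ferd3l, another basic helix-loop-helix gene, had 0 fragments in both replicates, and Hdac9, a histone deacetylase gene on the other side, had 524 and 548.

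Twist2, on chromosome 1 from 91801476 to 91848027 of the plus strand, was nearly undetected. It had 1 fragment in each replicate, below the floor of 3 counts, though the 95% counting interval of 0.0253 to 5.57 fragments reaches above it. Its mean was 0.0167 span TPM and 0.0470 exonic TPM, and its fragments were too few for the replicate test. The paralogues therefore differed by 111 against 1 and 95 against 1 fragments. All 7 listed Twist partner genes, the E-proteins with which Twist pairs and the Id proteins that sequester E-proteins, had at least 1 TPM, with medians of 9.63 on span and 21.5 on exonic length. Id4, Id2 and Id1 led on span at 172 ± 19.6, 171 ± 19.1 and 113 ± 39.2 TPM (SD, n = 2), and like Twist1 they are short genes whose exonic TPM was far lower, at 22.3, 30.9 and 21.5. The E-protein gene Tcf12, a long gene, ran the other way, with 7.22 span TPM and 54.4 exonic TPM.

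The Snail genes were low. Snai2, on chromosome 16 from 14705858 to 14709382 of the plus strand, had 13 and 14 fragments, 3.0 ± 0.728 span TPM and 1.00 ± 0.205 exonic TPM (SD, n = 2). Snai1, on chromosome 2 from 167538226 to 167542811 of the plus strand, had 4 and 1 fragments, 0.390 ± 0.279 span TPM and 0.215 ± 0.160 exonic TPM (SD, n = 2), the lower replicate being under the floor. Snai2 was above Snai1 in both replicates on every scale. The third Snail gene, Snai3, which stands in the list of related factors, had 44 and 21 fragments and was above both, at 3.72 ± 1.21 span TPM and 2.86 ± 1.03 exonic TPM (SD, n = 2), although its span TPM in replicate 2, 2.86, was below that of Snai2, 3.52.

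Among the 8 related zinc finger and helix-loop-helix genes, Snai3 and Tcf15 were the 2 with at least 1 TPM. Tcf15, a helix-loop-helix factor of the somites that is also known from ES cells leaving the naive state, had 147 and 51 fragments and 13.1 ± 6.95 span TPM (SD, n = 2), higher in replicate 1 as Sparc was. Scx, the tendon factor, and Hand1, a factor of heart and trophoblast, had 1 and 0 fragments each, and Hand2, Ferd3l, Scrt1 and Scrt2 had 0 in both replicates. In contrast, all 13 listed partners of Snail and Zeb, corepressors and regulators of their stability, had at least 1 TPM, with medians of 41.7 on span and 48.6 on exonic length. The highest on span were Suz12, a Polycomb subunit, at 752 ± 149, Hdac2, a histone deacetylase, at 263 ± 5.79, and Fbxl14, the F-box protein that targets Snail factors for degradation, at 178 ± 20.7 span TPM (SD, n = 2). Fbxl14 is a short gene whose exonic TPM, 48.6 ± 3.80 (SD, n = 2), was the list median, while Suz12 and Hdac2 were at 1350 and 326 exonic TPM. Such partners act with many other factors too.

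Zeb1, on chromosome 18 from 5591859 to 5775468 of the plus strand, is the longest gene of the set, with a span of 183610 bp that is 31.7 times its 5801 exonic bp. It had 1127 fragments in replicate 1 and 1072 in replicate 2, 10.2 and 11.3 times as many as Twist1. Its span TPM was 4.14 and 5.17, a mean of 4.65 ± 0.728 (SD, n = 2), but its exonic TPM was 25.8 and 30.6, a mean of 28.2 ± 3.34 (SD, n = 2), above Twist1 in both replicates. Its percentile was 62.3 on span TPM, 77.0 on exonic TPM and 82.6 on CPM. Any intronic fragments of Zeb1 are counted too, and their share, low in these libraries by the methods of the study, was not measured for this gene. The gene Gm10125 overlaps 0.315% of the span on the opposite strand and had 32 and 10 fragments.

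Zeb2, on chromosome 2 from 44983511 to 45113279 of the minus strand, is also long, at 129769 bp with 11443 bp exonic, but it had only 24 and 14 fragments. Its level was 0.110 ± 0.0206 span TPM and 0.241 ± 0.0542 exonic TPM (SD, n = 2), and its antisense gene Zeb2os had 0 fragments in both replicates. On exonic TPM, Zeb1 was 92.6 and 151 times Zeb2 in the replicates. Twist1 was thus above Twist2 and Zeb1 above Zeb2 in both replicates and on each scale. Zeb2 was low but above the floor of 3 counts, with fragment counts like those of Snai2, whereas Twist2 was under that floor, and both genes of the Snail pair were low.

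The order of the 8 genes on span TPM was Fn1, Twist1, Sparc, Zeb1, Snai2, Snai1, Zeb2 and Twist2, and only Twist1 and Sparc overlapped between neighbours over the replicates. On exonic TPM it was Fn1, Sparc, Zeb1, Twist1, Snai2, Zeb2, Snai1 and Twist2, with overlap of Zeb2 and Snai1 alone. On CPM it was Fn1, Zeb1, Sparc, Twist1, Zeb2, Snai2, Snai1 and Twist2, and 3 neighbouring pairs overlapped, Zeb1 with Sparc, Zeb2 with Snai2 and Snai1 with Twist2. Twist1 was 8.36 and 7.53 times Zeb1 on span TPM, and Zeb1 was 2.85 and 3.17 times Twist1 on exonic TPM. Fn1 at the top and Twist2 at the bottom held their place on all 3 scales.

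**Figure D2:**
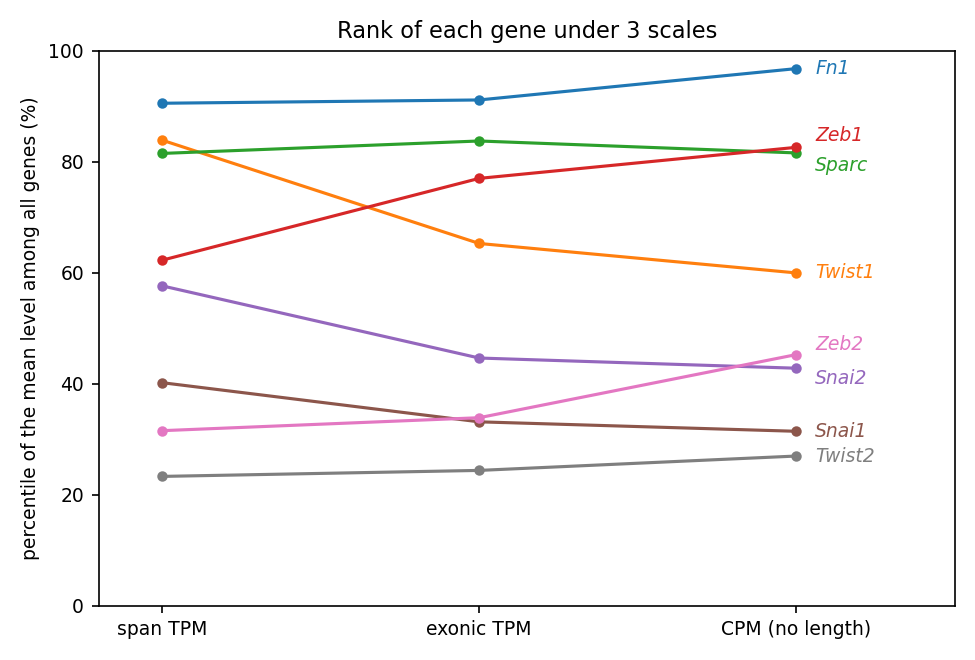
Percentile of each of the 8 genes among all genes on span TPM, exonic TPM and CPM, each from the mean of 2 replicates; lines join the same gene. Fn1 stays above 90 on each scale, Twist1 falls from 83.9 to 60.0 and Zeb1 climbs from 62.3 to 82.6.

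Of the 8 genes, 6 had the 10 fragments in total needed to compare the libraries, and 3 of these 6 differed by a two-sided exact binomial test at an adjusted p of 0.05, beside 60.8% of the 14536 genes tested. Fn1 and Sparc were lower in replicate 2, beside 45.7% of all tested genes called in that direction, and Zeb1 was higher. The test compares these 2 libraries and no condition. Sparc had a log2 ratio of replicate 2 over replicate 1 of -0.98 (95% interval -1.12 to -0.84; exact binomial, adjusted p = 1.41e-46), Fn1 of -0.06 (-0.11 to -0.02; exact binomial, adjusted p = 0.0181) and Zeb1 of 0.15 (0.03 to 0.28; exact binomial, adjusted p = 0.0232). Twist1 was at 0.00 (-0.41 to 0.41), Snai2 at 0.33 and Zeb2 at -0.53, and none of these passed (exact binomial, adjusted p = 1, 0.644 and 0.408).

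The direction of the smaller differences depended on scaling. The median of all tested genes was -0.31, and TMM scaling shifted every ratio by 0.26 and DESeq2 size factors by 0.31. With TMM, Fn1 turned to 0.19, Zeb1 went to 0.41 and Sparc to -0.72, so that 1 of the 3 called genes was lower and 2 higher, and among all genes 4203 were lower and 4187 higher in place of 6640 and 2202. The ratio also moved with GC content, with a Spearman's rho of -0.65 across 9244 autosomal genes, which share the 2 libraries. With that trend removed, Sparc, at 52.5% GC, was at -0.39, Fn1, at 53.5%, at 0.58, Zeb1 at 0.33 and Twist1, at 59.3%, at 0.77, and 4 of the 6 genes passed, beside 6561 of 14397 genes, 45.6% (exact binomial, adjusted p = 9.76e-08, 3.26e-114, 4.05e-07 and 0.000526). Sparc alone of the called genes was lower in replicate 2 under each of these scalings. The 12 basement membrane and collagen folding genes were all called lower in replicate 2 on library totals, but with TMM 5 were lower and 2 higher, and with the GC trend removed 1 was lower and 4 higher, where 3113 of all genes were lower and 3448 higher.

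**Figure D3:**
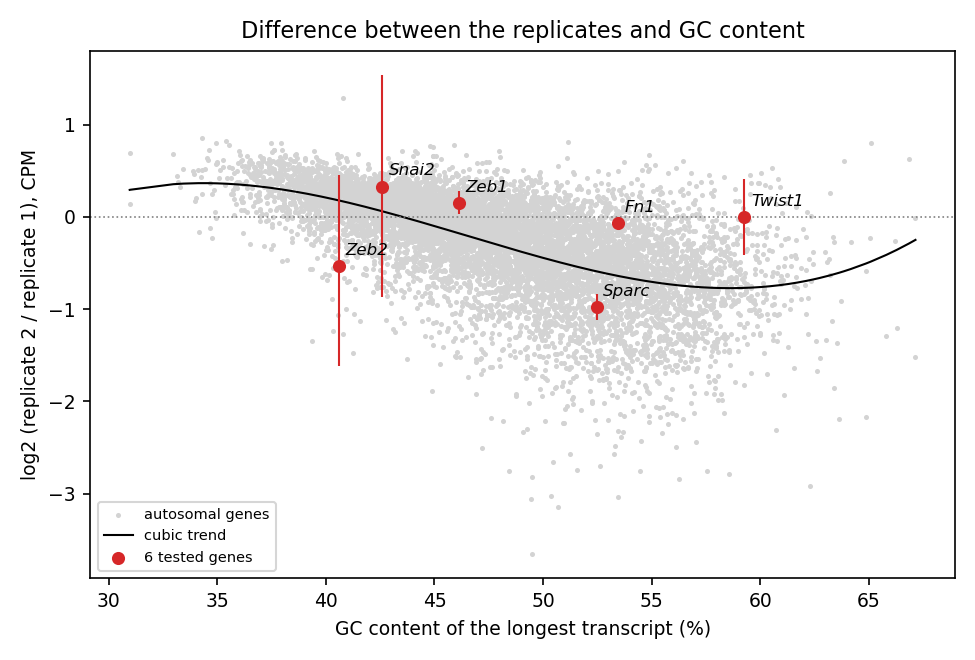
Log2 ratio of replicate 2 over replicate 1 on CPM against the GC content of the longest transcript in percent; grey points are autosomal genes, the line is their cubic trend, and red points are the 6 tested genes with 95% intervals from counting. Sparc lies below the trend at -0.98, while Fn1 and Twist1 lie above it.

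Fibroblast markers are given here because the cells were grown on fibroblast feeders. Whether feeder cells contributed to the level of any gene was not tested. Of 24 listed fibroblast genes, 3 had at least 1 span TPM and the median was 0.141 (0.171 in replicate 1 and 0.0855 in replicate 2), and 5 had at least 1 exonic TPM with a median of 0.154. Their summed level was 53.0 and 42.9 CPM, with 314 and 301 CPM for Fn1 alone and 59.5 and 30.2 CPM for Sparc alone. Fn1 was above the sum in both replicates, and Sparc was above it in replicate 1 and below it in replicate 2. Fn1 and Sparc are not on the list, so the sums do not show the source of their RNA. Of the 24 genes, 13 had under 10 fragments in total. The defining fibrillar collagens of types I and III were at or near 0: Col1a1 had 4 and 5 fragments, Col1a2 had 9 and 4, and Col3a1 had 0 and 1, while Sparc had 1411 and 612. The minor fibrillar collagen Col5a1 had 128 and 71 fragments, with 1.71 exonic TPM, and Fbn1, fibrillin of the microfibrils, 251 and 187, with 2.68. Pdgfrb, the mesenchymal PDGF receptor, had 12 and 4, and Postn, periostin, 0 and 1. The list was led by Timp3, a matrix-bound protease inhibitor, with 570 and 474 fragments, Mmp2, a gelatinase, with 133 and 53, and Thy1, a surface glycoprotein, with 32 and 2. Mmp2 and Thy1 were lower in replicate 2 (exact binomial, adjusted p = 3.08e-06 and 1.19e-06), while Timp3 and Fbn1 did not pass (exact binomial, adjusted p = 0.730 and 0.224). Any tie of these genes to the level of Sparc was not tested. On library totals 3 of the 11 tested fibroblast genes were lower in replicate 2 and 0 higher, beside 45.7% of all tested genes called lower. With TMM 2 were lower and 1 higher, and with the GC trend removed 1 and 1.

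Epithelial genes ranged widely and most ES cell genes were high in the same libraries. Of 22 epithelial genes, 19 had at least 1 span TPM and 9 at least 10, beside 52.7% and 29.6% of all genes. Their median was 6.51 span TPM. The highest on span were Epcam, an adhesion molecule, at 90.9 ± 14.5, and Cldn4, a tight junction claudin, at 115 in replicate 1 and 31.7 in replicate 2. Cldn4 is a short gene whose exonic TPM was far lower, at 22.7 and 5.92. Next on span was Cdh1, a repression target of the EMT factors, at 50.0 ± 6.87 span TPM and 145 ± 14.4 exonic TPM (SD, n = 2). Cdh1 mRNA was thus above Zeb1 and Twist1 mRNA in both replicates. All 16 ES cell genes had at least 1 span TPM, with a median of 124, and 15 had at least 1 exonic TPM. The span median was 171 in replicate 1 and 96.6 in replicate 2. On library totals 14 of the 16 were called lower in replicate 2 and 1 higher, beside 45.7% of all tested genes called lower. With TMM 9 were lower and 3 higher. The markers of the labelled cell type were thus present, with Tdgf1, Nanog and Dppa5a the highest by mean span TPM. The place of Dppa5a rested on replicate 1, at 1713 span TPM against 230 in replicate 2, and on span length, since by mean exonic TPM Zfp42, the pluripotency marker Rex1, at 846, stood above Nanog, at 774, and Dppa5a, at 353. Parts of the transcripts of Tdgf1, Nanog and Dppa5a also occur in other transcripts, so that their counts are uncertain.

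Genes of other embryonic cell types that express Fn1, Sparc or the EMT factors were mostly low. Of 12 primitive endoderm genes, 2 had at least 1 span TPM, with a median of 0.355. Dab2, an endocytic adaptor, was at 2.36 ± 0.0167 and the transcription factors Sox17 and Gata6 at 1.49 ± 0.621 and 0.721 ± 0.0745 span TPM (SD, n = 2), the last 2 with no more than 38 fragments in a replicate. On exonic TPM the order of Sox17 and Gata6 reversed, at 0.445 ± 0.170 and 1.42 ± 0.201, and Dab2 was at 12.2 ± 0.382 (SD, n = 2). Of 10 genes of primitive streak and mesoderm, where Snai1 is known to act, 3 had at least 1 span TPM, with a median of 0.520. In replicate 1 alone 5 did, with a median of 0.968, and in replicate 2 alone 3 did, with a median of 0.0929. Eomes, a T-box factor, had 396 and 243 fragments and 30.3 ± 4.62 span TPM, T, brachyury, 89 and 42 fragments and 6.02 ± 2.00 span TPM, and Mesp2, a mesoderm helix-loop-helix factor, 12 and 10 fragments and 3.13 ± 0.199 span TPM (SD, n = 2). On exonic TPM these were 12.6, 4.59 and 0.836, so that Mesp2 was below 1.

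**Figure D4:**
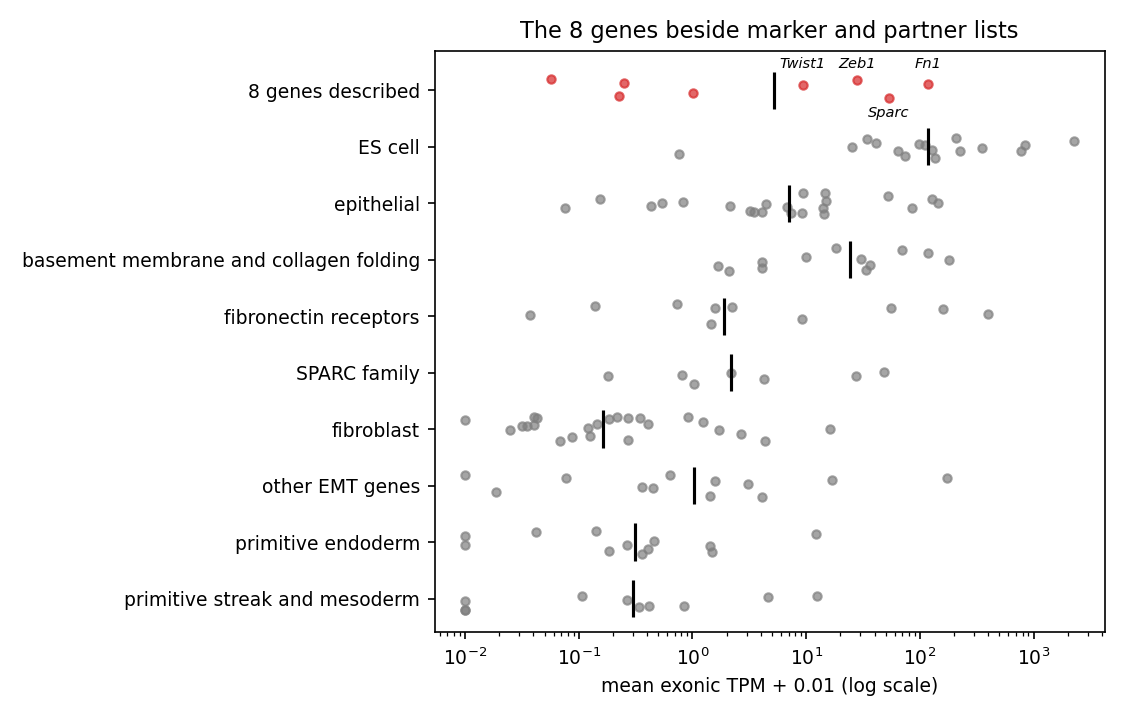
Mean exonic TPM of each gene of the lists, on a log axis after adding 0.01, with 1 point per gene and a bar at the median of each list; the top line holds the 8 genes, of which 4 are labelled. Fn1, Sparc and Zeb1 lie above every fibroblast gene, of which Timp3 is highest at 16.3, and within the range of the epithelial and ES cell genes.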

How the data were processed

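Strand-specific mRNA libraries of 2 replicates of 1 group, numbered as in the labels, were measured. The deposited values are raw counts of read pairs per gene, which the authors made with featureCounts (1.5.2, per the file headers) in reverse-stranded paired mode on mm10 over whole transcripts, so that introns were included. The length column equalled the transcript span for all 22556 genes. The submitters' processing notes also name Bowtie2 2.3.2 and STAR 2.4.2a. The aligner of the mRNA libraries themselves is not given in the sources used here. The descriptions carry a letter b that the column headings lack, so the remainder of each name was used to assign the columns.

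TPM was computed from the counts with the deposited span and, as a second scale, with the union of exons of GENCODE M21 basic, matched for 21239 genes by symbol and 887 by an older symbol (98.1%). The mean of the 2 replicates was used, as in the study. CPM used the library totals, and log2 ratios had 0.5 counts added. The replicates were compared gene by gene with an exact binomial test (two-sided) of the 2 counts against the totals, with Benjamini-Hochberg adjustment at 0.05 over the 14536 genes with at least 10 counts in total (Python 3.11.15, scipy 1.17.1). The test was checked on simulated counts. Intervals (95%) and floors of 3 counts reflect counting error alone, since the reads carry no molecular identifiers. Alternatives were TMM (edgeR 4.0.16, R 4.3.3), DESeq2 1.42.0 size factors, removal of a GC trend of degree 3 fitted on autosomal genes of 50 or more counts per library, other filters, other thresholds and single replicates. Shared reads were assessed from 50-base words of the longest transcript found in transcripts of other genes, which made up 0.963% of Snai2 and 0% of the other 7 described genes.

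The 8 genes and the 13 gene lists were chosen with earlier results of these data known. The genes named are the 8, the 3 of each list with the highest TPM, all related factors, 6 fibroblast genes, neighbouring and overlapping genes, and the 2 genes nearest in level to Fn1, Sparc and Twist1. A gene that this rule names is not reported here. Itga5, Tcf12, Zfp42, Col5a1 and Fbn1 were added after their values were seen. Library dispersion, as a biological coefficient of variation by edgeR, was 0.278.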

Additional observations from a re-analysis of the deposited data

How the results depend on the processing

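No paired analysis was possible because all samples belong to 1 group. Of 154 alternative values over 50 results, 102 kept their direction and their side of the threshold or moved by less than the spread between replicates, 48 moved, 3 reversed and 1 passed the threshold newly. The reversals were those of the Fn1 log2 ratio of replicate 2 over replicate 1, from -0.06 to 0.19 with TMM factors, 0.25 with DESeq2 size factors and 0.58 with the GC trend removed, and the new pass was Twist1 at 0.77 with the GC trend removed. The number of genes of the set at or above 10 TPM was 3 with exonic length, and 3 to 3 when either replicate was left out, and it was 5 at a threshold of 1 TPM, by construction. The main value of 3 on span was fixed by the selection of Fn1, Sparc and Twist1. Of the values that moved, 7 were mean TPM on exonic length, 6 and 7 were percentiles on exonic length and on CPM, and 8 were list medians on exonic length. The counts do not separate exonic from intronic fragments, which the methods of the study describe as few, and at 1 to 24 fragments the levels of Twist2, Snai1, Snai2 and Zeb2 are limited by counting error. The exonic TPM of Snai2 averaged 1.00 and was 0.856 in replicate 1, so its place at or above 1 TPM is marginal.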

Other observations

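Ligands and receptors of TGF-beta, the best known inducer of the EMT factors, were unevenly expressed. Of 11 listed genes, 7 had at least 1 span TPM, with a median of 7.25. Skil, an inhibitor of Smad signalling, was at 235 ± 63.3, Tgfbr1, the type I receptor, at 64.1 ± 19.1 and Smad4, the shared Smad, at 43.7 ± 11.9 span TPM (SD, n = 2). The ligands were low, with 12 and 7 fragments for Tgfb1, 4 and 3 for Tgfb2 and 5 and 2 for Tgfb3, and the type II receptor Tgfbr2 had 71 and 46. These ligands and Tgfbr2 were named after their values were seen.

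Of 12 further genes commonly used as signs of EMT, 5 had at least 1 span TPM, with a median of 0.728. Vim, vimentin, the intermediate filament of mesenchymal cells, had 2709 and 2414 fragments and 233 ± 25.8 span TPM and was above Fn1 on both lengths in both replicates. Mmp14, a membrane-bound matrix protease, was at 3.53 ± 2.01 span TPM (SD, n = 2 for both).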
